A study of Mus musculus with 48 samples.

Results

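The inner root sheath is the short-lived sleeve of cells that surrounds the growing hair shaft in the lower follicle and breaks down before the hair leaves the skin. Its cells are known for the type I keratins Krt25, Krt27 and Krt28, the type II keratins Krt71, Krt72 and Krt73 that pair with them into filaments, and trichohyalin (Tchh), the granule protein that transglutaminases and peptidylarginine deiminases modify so that the sheath hardens. Gata3 is a zinc-finger transcription factor needed for inner root sheath fate in mouse follicles, and it is also expressed in T cells, type 2 lymphocytes and interfollicular epidermis. Because the sheath is built only while a follicle is in its growth phase (anagen), its transcripts are known to be scarce in resting (telogen) skin. These 8 genes were picked by symbol, and all 8 were among the 18194 genes measured. Each was represented by 1 probe set that names that gene only, and all 8 passed the filter on low values.

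The series profiled skin of C3H/HeJ mice, an inbred strain that develops alopecia areata, with 48 Affymetrix arrays to study prevention of that disease. The treated groups carry the names il15rb, jak3i and jak12i, known of the study as an antibody to the interleukin-15 receptor beta chain, the Janus kinase inhibitor tofacitinib and the Janus kinase 1 and 2 inhibitor ruxolitinib. Vehicle animals had phosphate-buffered saline (PBS). It was given into the peritoneum (ip), through a pump or by gavage, and these routes served as controls for il15rb, jak3i and jak12i in that order. The labels give one strain and one tissue for all arrays and state neither age, sex, dose nor the number of animals behind an array. At week 5 there were il15rb (n = 3), PBS ip (n = 4) and sham (n = 4). At week 6 there were jak3i (n = 5), PBS pump (n = 3), jak12i (n = 5) and PBS gavage (n = 5). At week 13 each of il15rb, PBS ip, jak3i, PBS pump, jak12i and PBS gavage had n = 3. The disease model is known to use mice grafted with affected skin, but the labels do not mention a graft or say what the sham animals received.

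Values are deposited log2 signals, a scale on which 1 unit is a factor of 2, and a level of one gene is not set against the level of another. Differences are log2 differences ± the standard error (SE) from limma, fitted over 47 arrays and adjusted over 13648 tested genes, and a difference was called at an adjusted p under 0.05. The arrays' 75th percentiles were 8.47 to 8.68 in week 5, 8.15 to 8.35 in week 6 and 8.68 to 8.78 in week 13, so week and any difference in array processing cannot be told apart. Arrays of one group correlated between 0.925 and 0.996 over the 13648 tested genes. The epidermal gene list averaged between 10.68 and 12.11 in all 48 arrays, which the labels give as skin. In whole skin, fewer sheath cells and less RNA per sheath cell cannot be told apart, and this holds for every result below. The series calls its arrays biological replicates without tying each to an animal, so p-values measure the spread between arrays.

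In the RefSeq annotation of mouse GRCm38.p6 the sheath keratins lie in the 2 keratin gene clusters. Krt25 (chr11:99315516-99322951), Krt27 (chr11:99345565-99351118) and Krt28 (chr11:99365007-99374903) are neighbours on chromosome 11, and Krt71 (chr15:101733949-101743097), Krt72 (chr15:101776172-101786520) and Krt73 (chr15:101793304-101802360) are neighbours on chromosome 15, all on the minus strand. Tchh (chr3:93442330-93449077) and Gata3 (chr2:9857078-9887953) lie elsewhere. The windows below are the 60 bases before the annotated start of the 5 keratins that carry the TATA box core TATAAA there, shown because these genes moved together across arrays. They are written 5′ to 3′ on the gene's strand, with the core in capitals.
Krt25, chr11:99322952-99323011, minus strand: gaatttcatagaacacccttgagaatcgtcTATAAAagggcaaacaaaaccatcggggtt
Krt27, chr11:99351119-99351178, minus strand: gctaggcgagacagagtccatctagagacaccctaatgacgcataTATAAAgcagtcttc
Krt28, chr11:99374904-99374963, minus strand: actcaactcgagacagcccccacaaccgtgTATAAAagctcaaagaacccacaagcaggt
Krt71, chr15:101743098-101743157, minus strand: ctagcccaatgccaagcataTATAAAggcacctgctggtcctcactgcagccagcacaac
Krt73, chr15:101802361-101802420, minus strand: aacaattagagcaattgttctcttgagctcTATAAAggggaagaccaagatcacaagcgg

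The core begins 30 bases before the start in Krt25, Krt28 and Krt73, 15 bases before it in Krt27 and 40 bases before it in Krt71. It was found within the last 50 bases before the start, on the gene's strand, in 5 of the 8 genes and in 2.63% of 32851 RefSeq promoter windows of the same length. Windows of 1 chromosome, which holds none of the 8 genes, were left out of that total. Krt72, Tchh and Gata3 have no such match there, although Krt72 and Tchh moved together with the 5 keratins across arrays. The Gata3 start used lies within the gene span given above, with the 60 bases before it at chr2:9878601-9878660, minus strand. In the 250 bases before the start, on either strand, TATAAA was found in 6 of 8 against 12.4% of the 32851 windows, the GATA core GATAA in 6 of 8 against 22.6%, the homeodomain core TAATTA in 4 of 8 against 4.84%, and CTTTGAA, the LEF and TCF core, in 1 of 8 against 4.46%. These matches are letters in a window and carry no measurement of binding. Of all pairs among the 8 promoters, the type II keratins Krt71 and Krt73 share the longest identical stretch, 14 bases, which begins 196 and 154 bases before their starts and is in capitals in the following 64-base windows.
Krt71, chr15:101743255-101743318, minus strand: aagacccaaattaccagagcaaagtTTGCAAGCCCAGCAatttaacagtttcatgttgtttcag
Krt73, chr15:101802476-101802539, minus strand: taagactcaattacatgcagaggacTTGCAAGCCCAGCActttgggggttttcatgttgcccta

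Across the 47 grouped arrays the 6 keratins and Tchh spanned several log2 units, while Gata3 stayed high throughout. Krt25, the keratin with the widest range, ran from 5.39 to 14.11, and Krt72 had the narrowest keratin range, 6.85 to 10.56. Krt27 ran from 5.91 to 13.70, Krt28 from 6.24 to 12.87, Krt71 from 6.53 to 13.38, Krt73 from 5.06 to 12.52 and Tchh from 5.29 to 13.52. Gata3 ran only from 10.64 to 11.84. The SD within groups, pooled over the 13 groups, was 2.43 for Krt25, between 1.5 and 1.93 for Krt27, Krt28, Krt71, Krt73 and Tchh, 0.72 for Krt72 and 0.16 for Gata3. Sheath values of arrays in one group thus often lay far apart.

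**Figure D1:**
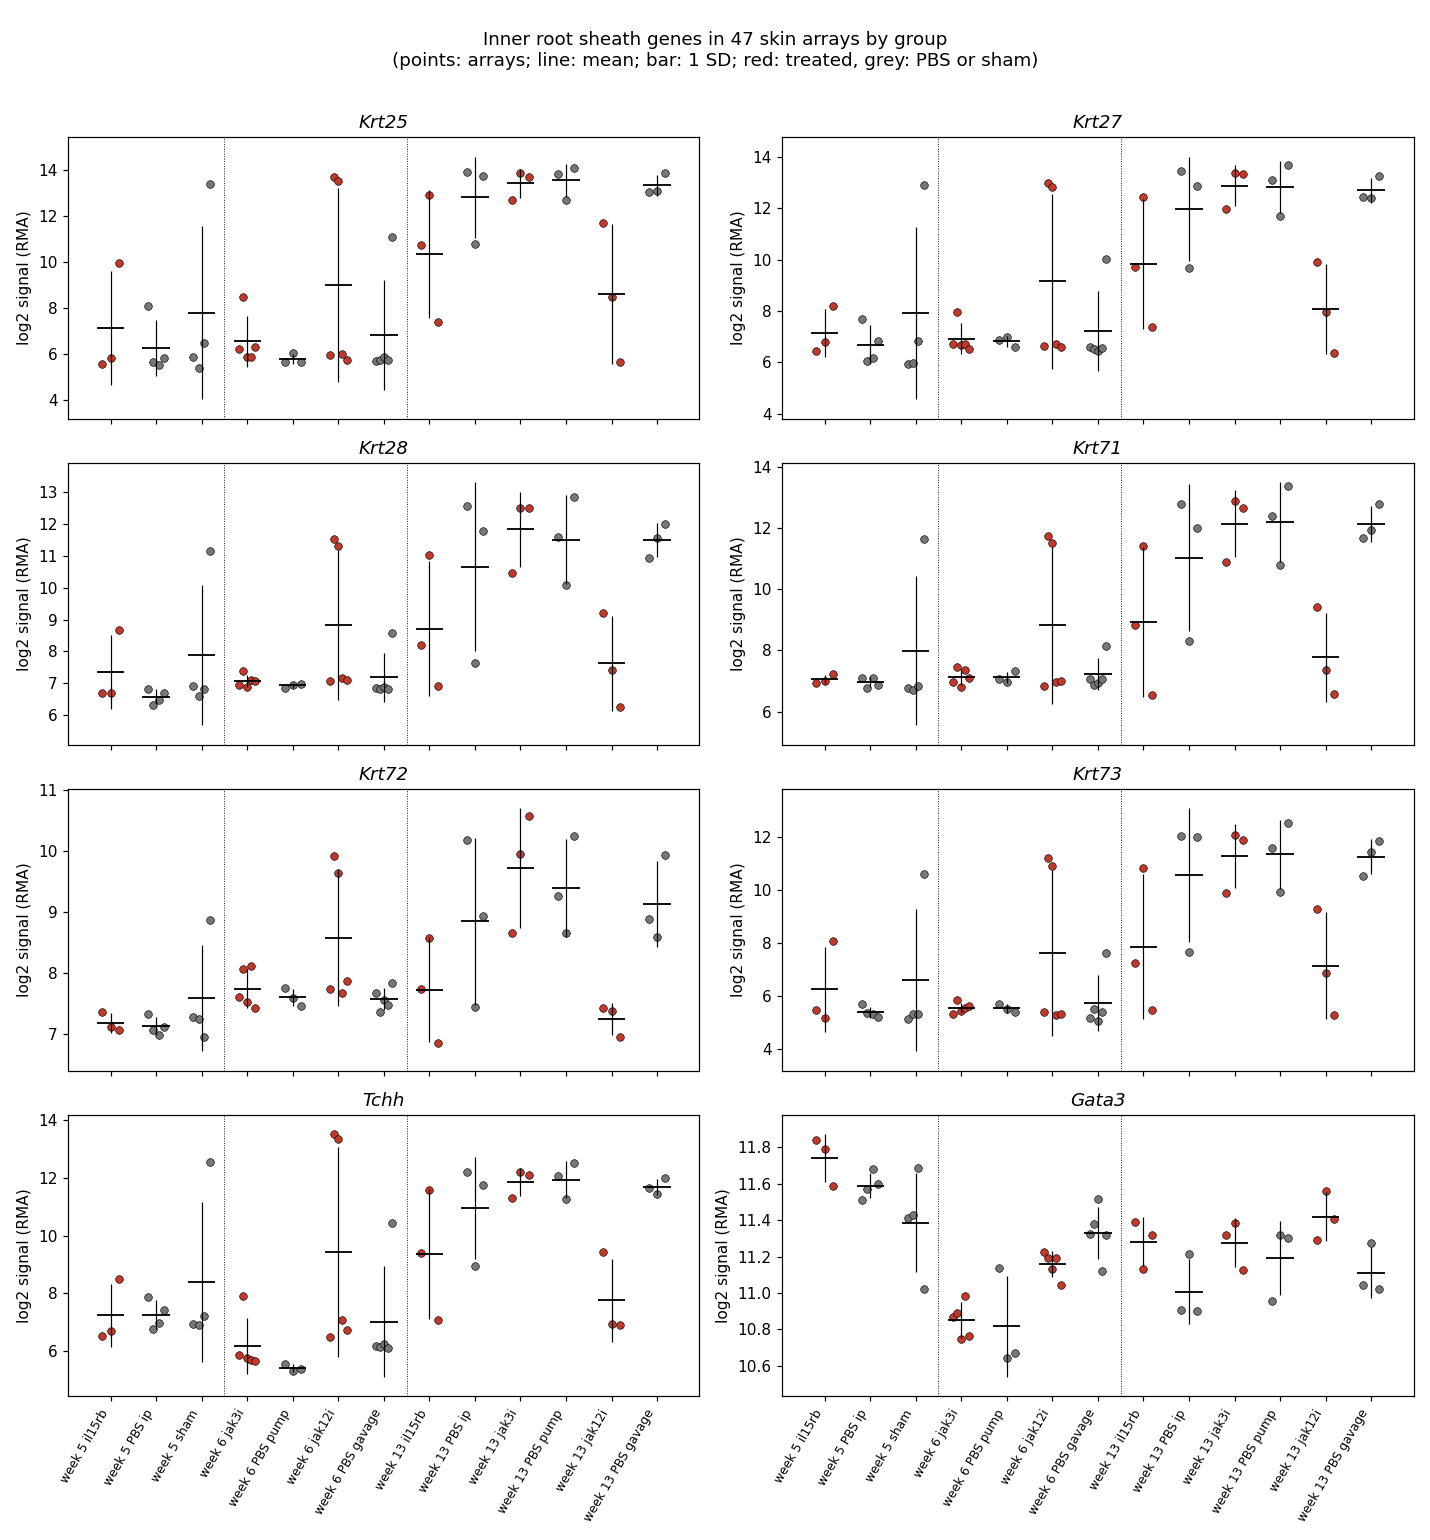
Log2 signal of each of the 8 genes (vertical axes) in the 13 groups (horizontal axis, weeks separated by dotted lines). Each point is 1 array, the horizontal line is the group mean and the vertical bar is 1 SD, with treated groups in red and PBS or sham groups in grey. Sham replicate 4 of week 5 and jak12i replicates 2 and 3 of week 6 stand far above the rest of their groups for the keratins and Tchh, and most week 13 arrays are high.

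At weeks 5 and 6 most arrays were low. Krt25 had 5.55, 5.82 and 9.98 in week 5 il15rb skin, 8.07, 5.66, 5.54 and 5.81 in PBS ip skin and 5.89, 5.39, 6.48 and 13.42 in sham skin. At week 6 Krt25 had 6.21, 8.49, 5.86, 5.88 and 6.29 in jak3i skin against 5.63, 6.05 and 5.67 in PBS pump skin. Week 6 jak12i skin had Krt25 at 5.97, 13.72, 13.52, 6.02 and 5.75, against 5.70, 5.76, 5.88, 5.73 and 11.09 in PBS gavage skin. One sham array and 2 jak12i arrays were near the top of the gene's range, and PBS gavage replicate 5 and il15rb replicate 3 were the next highest of these weeks. Tchh, the granule protein, had 6.48, 13.52, 13.34, 7.06 and 6.74 in week 6 jak12i skin and 6.16, 6.14, 6.23, 6.09 and 10.44 in PBS gavage skin, the same arrays being high. The PBS pump arrays of week 6 held the lowest Tchh values of the series, 5.55, 5.29 and 5.39. Krt72 was high in the same sham and jak12i arrays over a smaller range, with 7.74, 9.92, 9.63, 7.67 and 7.86 in week 6 jak12i skin and 7.27, 7.24, 6.95 and 8.87 in week 5 sham skin. It was not raised in week 5 il15rb replicate 3, where its values were 7.36, 7.11 and 7.07 in the 3 arrays, and its 7.82 in PBS gavage replicate 5 lay below the 8.06 and 8.11 of jak3i replicates 2 and 4.

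At week 13 Krt25 exceeded the midpoint of its range in 15 of 18 arrays, against 3 of 18 at week 6 and 2 of 11 at week 5. The corresponding counts at week 13 were 13 for Krt27, Krt73 and Tchh, 12 for Krt28 and Krt71 and 8 for Krt72. Krt25 had 10.75, 12.93 and 7.38 in il15rb skin against 13.93, 10.79 and 13.77 in PBS ip skin. It had 12.73, 13.90 and 13.70 in jak3i skin against 13.86, 12.72 and 14.11 in PBS pump skin. In jak12i skin it had 11.71, 8.48 and 5.63, all below the 13.07, 13.12 and 13.88 of PBS gavage skin. The low week 13 arrays for Krt25 were il15rb replicate 3 and jak12i replicates 2 and 3. The array in no group, titled PBS ip of week 5 but labelled IL15, was low too, with Krt25 at 5.94, Krt71 at 7.01 and Tchh at 7.45.

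The keratins and Tchh did not all pass the midpoint of their ranges in the same arrays, and the sets of arrays were nested. Krt25 passed it in 20 arrays, Krt27 and Tchh in the same 17 of those, Krt73 in 16 of the 17, Krt28 and Krt71 in the same 15 of the 16, and Krt72 in 11 of the 15. All 7 genes were above their midpoints in 11 arrays, none was in 27, and the other 9 arrays had some above and some below. The nesting depends on each gene's own log2 range and is a description of these arrays. In each of those 9 arrays Krt25, known in human follicles from all layers of the sheath, was the highest of the 7 as a share of its own range, and the order of the others varied. Week 5 il15rb replicate 3 had Krt25 52.6%, Krt27 29.3%, Krt28 36.8%, Krt71 10.2%, Krt72 5.87%, Krt73 40.5% and Tchh 38.9%. Week 13 jak12i replicate 1 had Krt25 72.5%, Krt27 51.1%, Krt28 44.7%, Krt71 42%, Krt72 15.6%, Krt73 56.5% and Tchh 50.3%. Week 13 PBS ip replicate 2 had Krt25 61.9%, Krt27 48.3%, Krt28 21.3%, Krt71 25.9%, Krt72 15.8%, Krt73 34.6% and Tchh 44.4%. Among all 9 such arrays Krt72 was the lowest of the 7, except in week 6 PBS gavage replicate 5, where Krt71 was. Krt72 is known in human follicles from the sheath cuticle, and a link of these shares to sheath layers was not tested. Of the 3 arrays above, Krt73 exceeded Krt27 in il15rb replicate 3 and jak12i replicate 1 but not in PBS ip replicate 2. Week 13 il15rb replicate 1 had Krt25 61.5%, Krt27 48.8%, Krt28 29.5%, Krt71 33.8%, Krt72 24%, Krt73 29.1% and Tchh 49.8%. Krt73, also known from the cuticle, passed its midpoint in more arrays than Krt72. Week 6 PBS gavage replicate 5 had Krt25 65.4%, Krt27 52.7%, Krt28 35.1%, Krt71 23.6%, Krt72 26.3%, Krt73 34.1% and Tchh 62.6%. That array also had skeletal muscle genes averaging 7.83, against 12.62 to 13.63 in the other 4 PBS gavage arrays of week 6, and the part of tissue content in its sheath values was not tested.

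**Figure D2:**
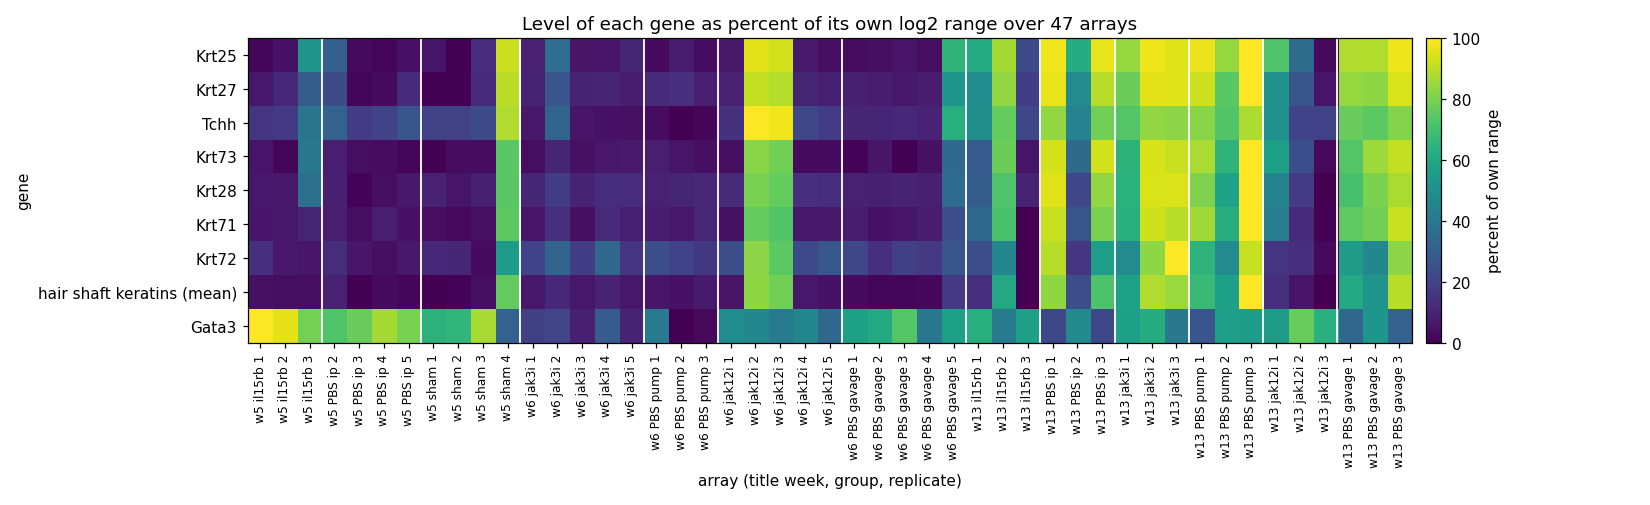
Colour gives the level of each gene as a percentage of its own log2 range over 47 arrays (rows: the 7 sheath structural genes, the mean of the hair shaft keratins and Gata3; columns: arrays grouped by week and treatment, groups separated by white lines). In the 9 arrays with only some of the 7 structural genes above their midpoints the Krt25 row is the brightest of the 7, from 52.6% in week 5 il15rb replicate 3 to 88.7% in week 13 PBS gavage replicate 2.

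Hair shaft keratins, the structural keratins of the hair fibre, were high where the sheath keratins were highest. They were low, with means of 6.26 to 7.28, where the sheath keratins averaged 8.21 to 9.49. The 12 measured shaft keratins averaged 9.99 in week 5 sham replicate 4 and 10.34 and 10.12 in week 6 jak12i replicates 2 and 3. In week 5 il15rb replicate 3 they averaged 6.26, between the 6.29 and 6.24 of the other il15rb arrays of that week, although the 6 sheath keratins averaged 8.21 there against 6.40 and 6.42 in those arrays. In week 13 jak12i replicate 1 the sheath keratins averaged 9.49 and the shaft keratins 6.78. That shaft level was 13.9% of the way through the list's own range. In week 13 PBS ip replicate 2 it was 23.7%, above Krt28 and Krt72 in that array. In week 6 PBS gavage replicate 5 the shaft keratins averaged 6.92, above the 6.13 to 6.20 of the other 4 PBS gavage arrays of week 6.

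**Figure D3:**
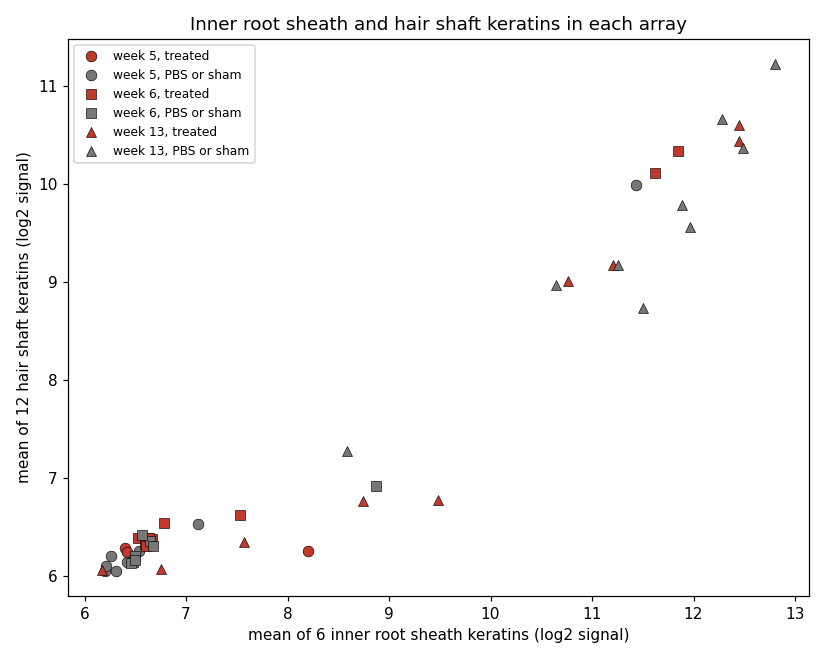
Mean log2 signal of the 6 inner root sheath keratins (horizontal axis) against that of the 12 measured hair shaft keratins (vertical axis), 1 point per array, with the week given by the symbol and treated arrays in red. Arrays with a sheath mean of 10.65 or more have a shaft mean of 8.73 or more, while the 5 arrays with a sheath mean of 8.21 to 9.49 have a shaft mean of 6.26 to 7.28.

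After each week's mean was subtracted, the 21 pairs among the 6 keratins and Tchh correlated between 0.81 and 0.99 over 47 arrays, and between 0.71 and 0.98 without sham replicate 4 of week 5 and jak12i replicates 2 and 3 of week 6. Gata3 correlated between -0.33 and -0.17 with each of them, and between -0.62 and -0.53 within the 18 week 13 arrays. Its sign was not the same in every week: against the mean of the 6 keratins Gata3 had r = -0.75 within week 5, 0.18 within week 6 and -0.61 within week 13. The data therefore group the 7 structural genes together and leave Gata3 out, and Gata3 is described separately. The arrays of a group share treatment and processing, so these coefficients are descriptions without a test. Among the other 13640 genes tested, those most like the mean of the 6 keratins over 47 arrays were the hair shaft keratins Krt33a (r = 0.977), Krt35 (0.970) and Krt86 (0.956), the calcium-binding hair cuticle gene S100a3 (0.976), the keratin-associated protein genes Krtap11-1 (0.976) and Krtap17-1 (0.960), the sheath keratin Krt26 (0.960), the gap junction gene Gjb2 (0.959), and Prr9 (0.963) and Gm11559 (0.958). In all, 56 of the 13640 had r above 0.9. The least alike were Pepd (-0.747), a peptidase gene, and Klhl17 (-0.693). Tchh itself had r = 0.956.

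The week 5 comparisons ask what the skin looked like early under il15rb, under PBS ip and in sham animals. None of the 8 genes was called in il15rb against PBS ip, where 0.0733% of tested genes were called, in il15rb against sham (0.0293%) or in PBS ip against sham (0.0293%). At an unadjusted p under 0.05 the count was 0 of 8 (4.02% of tested genes) in il15rb against PBS ip, 1 of 8 (11.6% of tested genes) in il15rb against sham and 0 of 8 (5% of tested genes) in PBS ip against sham. Krt25 differed by 0.84 ± 1.78 between il15rb and PBS ip, with a 95% interval of -2.77 to 4.46, so that changes of several log2 units in either direction lay inside it. Against sham, Krt25 differed by -0.68 ± 1.78 (adjusted p = 0.929) in il15rb skin and by -1.53 ± 1.65 (adjusted p = 1) in PBS ip skin. Without sham replicate 4 those Krt25 differences became 1.19 (adjusted p = 0.992) and 0.35 (adjusted p = 1), so both changed sign on 1 array. Tchh behaved alike, with -1.16 ± 1.38 (adjusted p = 0.803) in il15rb against sham and 0.22 (adjusted p = 0.999) without that array.

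The week 6 comparisons set jak3i against PBS pump and jak12i against PBS gavage. Of the 8 genes, 0 were called in jak3i against PBS pump (limma called 4.1% of tested genes), and 0 in jak12i against PBS gavage (9.59%), with an unadjusted p under 0.05 for 0 of 8 (16% of tested genes) under jak3i and 2 of 8 (25.5% of tested genes) under jak12i. Tchh was the 1 gene whose jak3i arrays (5.85, 7.91, 5.75, 5.68 and 5.65) all lay above the PBS pump arrays (5.55, 5.29 and 5.39), as the arrays of 9.12% of tested genes did not overlap, and the difference of 0.76 ± 1.32 missed the threshold (adjusted p = 0.869). The keratin differences under jak3i ran from 0.01 for Krt71 to 0.76 for Krt25. Under jak12i all 7 structural genes averaged higher than under PBS gavage, Krt25 by 2.16 ± 1.48 (adjusted p = 0.366), Krt72 by 0.99 ± 0.44 (adjusted p = 0.143) and Tchh by 2.42 ± 1.14 (adjusted p = 0.175). Their arrays overlapped, and those of 8.1% of tested genes did not. The averages rested on replicates 2 and 3. Without them and sham replicate 4 of week 5 the jak12i difference became -0.92 (adjusted p = 0.696) for Krt25, -0.25 (adjusted p = 0.9) for Tchh and 0.19 (adjusted p = 0.834) for Krt72. PBS gavage replicate 5, high for Krt25 (11.09) and Tchh (10.44), stayed in. The jak12i arrays kept had Krt25 at 5.97, 6.02 and 5.75, against 5.70 to 5.88 in the other PBS gavage arrays. Their Tchh was 6.48, 7.06 and 6.74, against 6.09 to 6.23. Of the 12 tested shaft keratins 2 were called higher under jak12i at week 6, Krt84 by 0.89 ± 0.29 (adjusted p = 0.0472) and Krt36 by 0.65 ± 0.22 (adjusted p = 0.0494), with overlapping arrays. The median shaft keratin difference was 1.56, against -0.03 over all tested genes. With limma's array weights, estimated over all tested genes, 4 of the 8 genes were called higher, Krt27, Krt28, Krt72 and Tchh, the last by 3.90 (adjusted p = 0.015), a larger difference than in the unweighted fit. The 9.59% of tested genes above belongs to the unweighted fit, and the share called with weights is not given.

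At week 13 the sheath genes were lower in jak12i skin than in PBS gavage skin. Krt71, a type II keratin of the sheath, had 9.41, 7.34 and 6.58 in jak12i arrays against 11.68, 11.93 and 12.80 in PBS gavage arrays. Krt72 had 7.43, 7.36 and 6.95 in jak12i skin against 8.89, 8.58 and 9.92 in PBS gavage skin. The 3 jak12i arrays lay below all PBS gavage arrays for both, and the gap was wide for Krt71. Krt71 fell to 7.78 ± 1.46 in jak12i skin, against 12.13 ± 0.59 in PBS gavage skin (SD, n = 3 each), a log2 difference of -4.36 ± 1.21 (adjusted p = 0.00847), or 20.5-fold lower. Krt72 fell too, with a difference of -1.88 ± 0.56 (adjusted p = 0.0144), or 3.69-fold.

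The partners among the type I keratins moved with them. Krt27 had 9.89, 7.97 and 6.37 in jak12i skin against 12.46, 12.39 and 13.27 in PBS gavage skin, a difference of -4.63 ± 1.51 (adjusted p = 0.0248). Krt28 had 9.20, 7.42 and 6.24 in jak12i skin against 10.94, 11.56 and 12.02 in PBS gavage skin, a difference of -3.88 ± 1.18 (adjusted p = 0.0159). Krt73, a type II keratin, had 9.27, 6.84 and 5.26 in jak12i skin against 10.52, 11.41 and 11.83 in PBS gavage skin, a difference of -4.13 ± 1.44 (adjusted p = 0.0354). In all 3 genes replicate 1 of jak12i was the highest of its group and replicate 3 the lowest. Krt25 had the largest difference, -4.75 ± 1.91, but also the widest spread and missed the threshold (adjusted p = 0.0701). Tchh had 9.42, 6.95 and 6.88 in jak12i skin against 11.64, 11.45 and 11.99 in PBS gavage skin and missed it narrowly at -3.94 ± 1.47 (adjusted p = 0.0508). In all, 5 of the 8 genes were called, all lower, where 21.9% of tested genes were called and 10.3% were called lower. For each of the 8 genes the groups did not overlap, as was so for 37% of tested genes, with jak12i lower for the 7 structural genes.

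The jak12i calls depended on single arrays. Without jak12i replicate 3, 0 of the 8 genes were called, with Krt71 at -3.76 (adjusted p = 0.0534). Without PBS gavage replicate 3 there were 0 as well, with Krt71 at -4.03 (adjusted p = 0.0508), and without jak12i replicate 2 there were 3, Krt28, Krt71 and Krt72. All 7 structural genes stayed lower in each of these. Leaving out sham replicate 4 of week 5 and jak12i replicates 2 and 3 of week 6, which enter only through the shared spread, gave 7 calls, Krt25 and Tchh included. The share of all tested genes called in these refits is not given. A fit on the week 13 arrays alone kept Krt27 and Krt71, added Krt25 and Tchh, and lost Krt28 (adjusted p = 0.0522), Krt72 (0.0708) and Krt73 (0.0632).

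**Figure D4:**
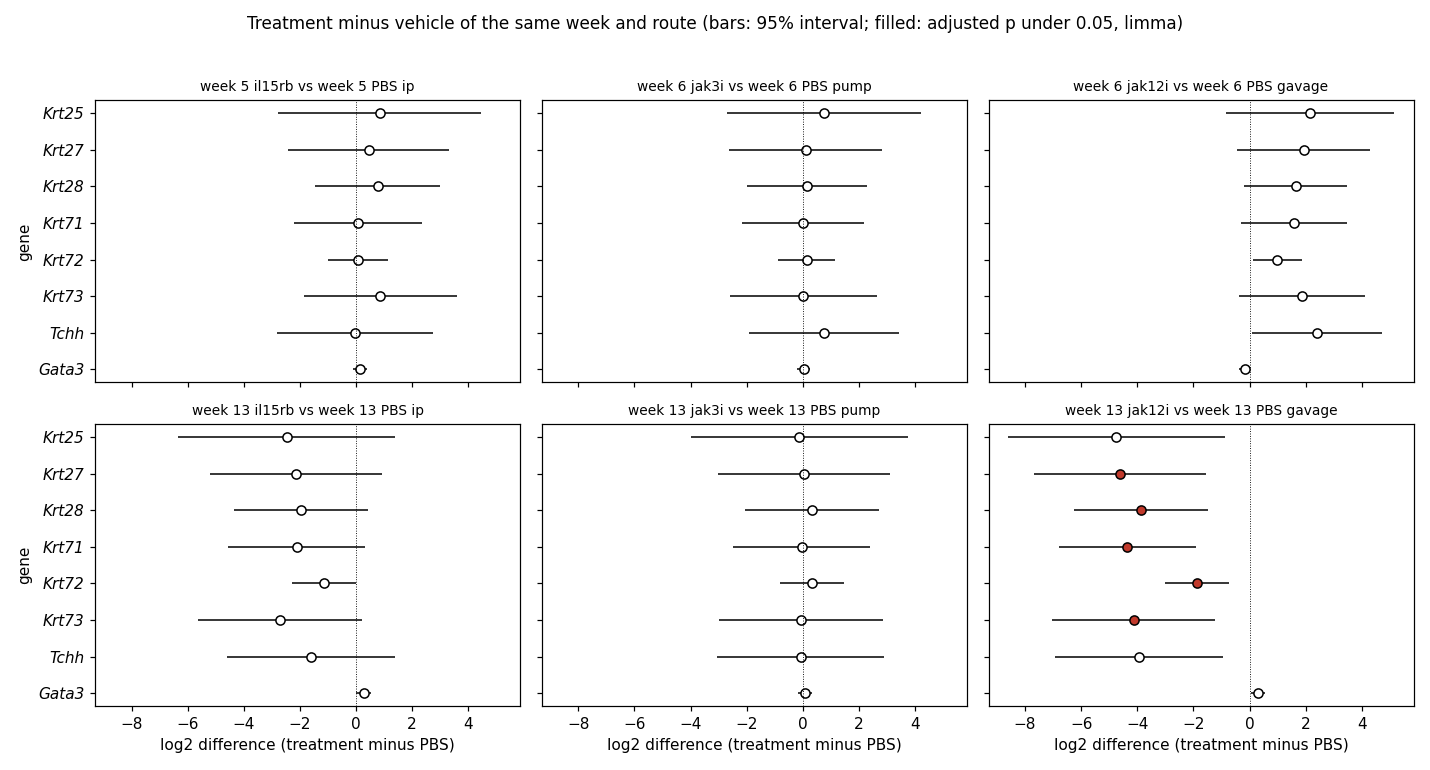
Log2 difference of treatment minus PBS (horizontal axes) for the 8 genes in the 6 comparisons of a treatment with PBS of its week and route, with bars for the 95% interval and filled points where limma's adjusted p was under 0.05. The filled points are 5 keratins in week 13 jak12i against PBS gavage, between -4.63 and -1.88, and week 13 jak3i against PBS pump lies near 0.

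Other follicle genes in the same comparison, from lists written with earlier results of these data known, moved as follows. Of 15 tested other sheath genes 7 were lower under jak12i and 0 higher, with a median difference of -0.48 against 0.02 over all tested genes. They included the peptidylarginine deiminases Padi4 (-1.86 ± 0.39, adjusted p = 0.000765), Padi3 (-4.02 ± 0.96, adjusted p = 0.00261) and Padi1 (-1.66 ± 0.48, adjusted p = 0.0117), enzymes that convert arginines of trichohyalin to citrulline. Of 12 hair shaft keratins 10 were lower, with a median of -3.26. Of 9 companion layer and outer root sheath genes 5 were lower and 1 higher, among the lower ones Krt16 (-3.61 ± 0.62, adjusted p = 5.93e-05), Krt6b (-6.21 ± 1.19, adjusted p = 0.000244) and Krt17 (-1.09 ± 0.23, adjusted p = 0.00081). Of 17 matrix regulators 8 were lower and 3 higher, the higher ones being Dlx5, Bmp4 and Bmp2. Of 10 bulge and resting follicle genes 5 were higher, led by the bulge keratin Krt15 (1.31 ± 0.19, adjusted p = 5.57e-06), Nfatc1 (0.82 ± 0.14, adjusted p = 5.43e-05) and Fgf18 (2.79 ± 0.51, adjusted p = 0.000132), and 1 was lower.

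Genes of other cells also differed between these arrays. The T cell list averaged 7.08 to 7.38 in jak12i arrays and 8.0 to 8.18 in PBS gavage arrays, with 5 of 8 genes called lower. The cell division list averaged 7.76 to 8.26 in jak12i arrays and 8.53 to 9.36 in PBS gavage arrays, with 13 of 14 called lower. The adipocyte list averaged 11.20 to 11.63 in jak12i arrays and 9.84 to 10.44 in PBS gavage arrays, with 7 of 8 called higher. The epidermal list, which excludes follicle genes, had 3 of 9 called lower, and skeletal muscle had 0 of 10 called. The part of these shifts in the sheath result was not tested.

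In week 13 il15rb skin the keratins and Tchh averaged lower than in PBS ip skin but none was called, where 25.7% of tested genes were, and the count at an unadjusted p under 0.05 was 1 of 8 (36.9% of tested genes). Krt73 had 7.22, 10.84 and 5.47 in il15rb skin against 12.02, 7.64 and 11.99 in PBS ip skin, a difference of -2.71 ± 1.44 (adjusted p = 0.167) with an interval of -5.62 to 0.21. Krt71 had 8.84, 11.42 and 6.53 in il15rb skin against 12.80, 8.31 and 12.01 in PBS ip skin, a difference of -2.11 ± 1.21 (adjusted p = 0.203). The mean of the 6 keratins was 8.74, 11.21 and 6.75 in il15rb arrays against 12.49, 8.58 and 11.89 in PBS ip arrays. Replicate 3 of il15rb was the lowest, replicate 1 of il15rb and replicate 2 of PBS ip lay close together, and the groups overlapped for all 8 genes, where those of 36.8% of tested genes did not. Krt72 differed by -1.13 ± 0.56 (adjusted p = 0.141) and Tchh by -1.61 ± 1.47 (adjusted p = 0.447). Without PBS ip replicate 2, 5 of the 8 genes were called, Krt28, Krt71, Krt72 and Krt73 lower and Gata3 higher, and without il15rb replicate 2 only Krt73 was (-4.21, adjusted p = 0.0425). With all PBS arrays of week 13 as the control, Krt28, Krt71, Krt72 and Krt73 were called lower, Krt71 with a difference of -2.86 (adjusted p = 0.0213). The 25.7% above is for il15rb against PBS ip with all grouped arrays, and the shares called in these refits are not given. Hair shaft keratins had 0 of 12 called, with a median difference of -1.83 against 0.01 over all tested genes. Of 10 bulge and resting follicle genes 5 were called higher and 2 lower. Of 9 companion layer and outer root sheath genes 6 were called lower and 1 higher. The other sheath genes had 2 of 15 called, both lower, Cst6 (-0.998 ± 0.19, adjusted p = 0.000267), a cysteine protease inhibitor gene, and Padi4 (-1.52 ± 0.39, adjusted p = 0.00423). T cell genes had 8 of 8 called lower, and skeletal muscle genes, which averaged 13.19 to 13.61 in il15rb arrays and 7.52 to 12.96 in PBS ip arrays, had 8 of 10 called higher. The sheath count was 0 as well without the 3 arrays of low skeletal muscle signal, a setting chosen after seeing the data. The share of tested genes called there is not given. That setting kept PBS ip replicate 1, with a muscle mean of 10.77, and the part of muscle content in these values was not tested.

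In week 13 the sheath genes were high in jak3i skin and in PBS pump skin alike, with wide intervals. Krt71 had 10.88, 12.89 and 12.67 in jak3i skin against 12.40, 10.80 and 13.38 in PBS pump skin, a difference of -0.04 ± 1.21 (adjusted p = 0.989) with an interval of -2.49 to 2.40. Krt72 had 8.64, 9.94 and 10.56 in jak3i skin against 9.26, 8.65 and 10.24 in PBS pump skin, a difference of 0.33 ± 0.56 (adjusted p = 0.748). Tchh had 11.31, 12.20 and 12.09 in jak3i skin against 12.06, 11.27 and 12.51 in PBS pump skin, a difference of -0.08 ± 1.47 (adjusted p = 0.983). The groups overlapped for all 8 genes, where those of 29.7% of tested genes did not. None was called where 16% of tested genes were, and the count at an unadjusted p under 0.05 was 0 of 8 (29.8% of tested genes). The differences ran from -0.12 to 0.33, while 7 of 8 T cell genes were called lower in the same arrays, Cd8a with a difference of -2.40 ± 0.20 (adjusted p = 1.20e-10). Hair shaft keratins had 0 of 12 called, and 7 of 10 bulge and resting follicle genes were called higher, led by Nfatc1 (0.65 ± 0.14, adjusted p = 0.00117), Krt15 (0.82 ± 0.19, adjusted p = 0.00227) and Tcf4 (0.43 ± 0.12, adjusted p = 0.0148).

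Whether the week 13 effects differed between agents was tested directly. For jak3i minus jak12i, the differences of effect were positive for the 7 structural genes, from 2.22 ± 0.80 for Krt72 to 4.67 ± 2.14 for Krt27. Krt72 had the lowest p (unadjusted p = 0.0084, adjusted p = 0.633). None of the 8 genes was called in any of the 3 pairs of agents, where limma called 0.00733% of tested genes in each. At an unadjusted p under 0.05 there were 4 of 8 (6.59% of tested genes) for jak3i minus jak12i, 0 of 8 (6.89% of tested genes) for il15rb minus jak3i and 0 of 8 (6.21% of tested genes) for il15rb minus jak12i. The calls under jak12i and their lack under jak3i are therefore not shown to differ.

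Averaged over the 3 agents at week 13 (9 treated and 9 PBS arrays), 5 keratins were called lower and Gata3 higher, where 47% of tested genes were called, 20.5% lower and 26.5% higher. Krt71 differed by -2.17 ± 0.70 (adjusted p = 0.01), Krt73 by -2.30 ± 0.83 (adjusted p = 0.0217), Krt72 by -0.89 ± 0.33 (adjusted p = 0.0229), Krt28 by -1.84 ± 0.68 (adjusted p = 0.025) and Krt27 by -2.25 ± 0.87 (adjusted p = 0.0329). Krt25 (-2.45 ± 1.10, adjusted p = 0.0653) and Tchh (-1.88 ± 0.85, adjusted p = 0.0677) were not called, and the treated and PBS arrays overlapped for all 8 genes, where those of 5.87% of tested genes did not. Genes of other cells differed between the same arrays. Skeletal muscle had 9 of 10 genes called higher, its mean ranging over 12.50 to 13.77 in treated arrays and 7.52 to 12.99 in PBS arrays. Of the adipocyte list 7 of 8 and of the sebaceous gland list 4 of 5 were called higher, with medians of 1.33 and 0.68. Of the cell division list 13 of 14 were called lower, with a median of -0.76 against 0.01 over all tested genes. The same count of 6 members was called without the 3 arrays of low skeletal muscle signal. That setting kept PBS ip replicate 1 (10.77) and PBS pump replicate 1 (11.94), whose muscle means lay below the treated range. The other PBS arrays kept lay within it. The part of muscle content and of the other shifts was not tested. The count of 6 became 2 without il15rb replicate 3, jak3i replicate 1 or PBS ip replicate 1, and 3 without jak12i replicate 3, PBS ip replicate 3 or PBS pump replicate 3. The 47% above belongs to the fit with all grouped arrays. Shares of tested genes called in the refits are not given, so the moved counts are not set against them.

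The effect of jak12i against PBS gavage differed between week 13 and week 6 for all 8 genes, where 16.1% of tested genes were called. The difference of effects was -2.88 ± 0.71 (adjusted p = 0.0054) for Krt72, -5.96 ± 1.52 (adjusted p = 0.00657) for Krt71, -6.36 ± 1.86 (adjusted p = 0.017) for Tchh and -6.91 ± 2.41 (adjusted p = 0.0447) for Krt25. It rested in part on the high week 6 arrays. Without jak12i replicates 2 and 3 of week 6 and sham replicate 4 of week 5, Krt27, Krt28, Krt71 and Krt72 were still called, Krt71 at -4.08 (adjusted p = 0.0192), while Krt25 (-3.83, adjusted p = 0.173), Krt73 (-3.70, adjusted p = 0.0839), Tchh (-3.69, adjusted p = 0.0566) and Gata3 (0.48, adjusted p = 0.0546) were not. The count was 3 without jak12i replicate 3 of week 13 and 3 without PBS gavage replicate 3 of week 13. The 16.1% above belongs to the fit with all grouped arrays, and the shares called in these refits are not given. For il15rb between weeks 13 and 5 and for jak3i between weeks 13 and 6, 0 of 8 genes were called, where 10.6% and 9.2% of tested genes were. At an unadjusted p under 0.05 there were 0 of 8 (27.3% of tested genes) for il15rb and 0 of 8 (23.9% of tested genes) for jak3i.

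Gata3 took a course of its own. It had 11.29, 11.56 and 11.40 in week 13 jak12i skin against 11.05, 11.27 and 11.02 in PBS gavage skin, 11.39, 11.13 and 11.32 in il15rb skin against 10.90, 11.21 and 10.90 in PBS ip skin, and 11.32, 11.38 and 11.12 in jak3i skin against 10.96, 11.32 and 11.30 in PBS pump skin. Only the jak12i pair did not overlap, and all differences were small. Single comparisons missed the threshold, with 0.31 ± 0.13 (adjusted p = 0.085) for jak12i, 0.27 ± 0.13 (adjusted p = 0.117) for il15rb and 0.08 ± 0.13 (adjusted p = 0.725) for jak3i. Averaged over the agents Gata3 rose by 0.22 ± 0.07 (adjusted p = 0.0142), or 1.17-fold. T cells express Gata3, and the T cell list was lower in the same arrays: its mean lay between 6.71 and 7.38 in the 9 treated arrays of week 13 and between 7.95 and 8.60 in the 9 PBS arrays. Type 2 lymphocyte genes had 1 of 4 called lower under jak12i (Icos), 2 lower and 1 higher under il15rb, and 2 lower under jak3i. Of 9 epidermal genes 3 were called lower under jak12i, 2 higher and 1 lower under il15rb, and 0 under jak3i. Epidermis also expresses Gata3, and the part of each of these cell types in the Gata3 values was not tested.

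Gata3 was also the 1 gene of the 8 called between vehicles. At week 6 it had 11.32, 11.38, 11.52, 11.12 and 11.32 in PBS gavage skin against 11.14, 10.64 and 10.67 in PBS pump skin, a difference of 0.51 ± 0.12 (adjusted p = 0.000613), and 37.2% of tested genes were called there. PBS pump replicate 1 lay within the PBS gavage range, and the jak3i arrays (10.87, 10.89, 10.75, 10.98 and 10.76) lay near the PBS pump arrays. Tchh was higher in every PBS gavage array than in any PBS pump array, as the arrays of 34.2% of tested genes did not overlap, but was not called (1.60 ± 1.32, adjusted p = 0.355). The week 6 Gata3 difference of jak3i from its vehicle was 0.03 ± 0.12 (adjusted p = 0.946). With all PBS arrays of week 6 as the control it turned to -0.29 (adjusted p = 0.0484), so its direction depended on the vehicle chosen. Among the 3 PBS routes of week 13, 0 of the 8 genes were called, where 0.0513% of tested genes were for PBS ip against PBS pump, 0.0513% for PBS gavage against PBS pump and 0% for PBS ip against PBS gavage. At an unadjusted p under 0.05 there were 0 of 8 (7.33% of tested genes), 0 of 8 (8.53% of tested genes) and 0 of 8 (11.2% of tested genes) in that order. In week 5 Gata3 was higher in il15rb than in sham arrays by 0.35 ± 0.12, not called (adjusted p = 0.232), and 0.23 (adjusted p = 0.8) without sham replicate 4, the lowest sham array.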

How the data were processed

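The deposited values are log2 signals of 45101 probe sets on 48 arrays, made by the authors with RMA of unstated version, per the submitters' processing notes. RMA corrects background, quantile-normalizes and summarizes probes on the log2 scale, so low signals level off at a floor and folds of low genes are understated. Whether the weeks were normalized together is not given in the sources used here. RNA was biotin-labelled with a 3′ kit per the labels.

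Probe sets with 1 gene symbol numbered 34958, with several 932 and with none 9211, and symbols were updated by Entrez identifier for 34754. Of each gene the probe set of highest mean was kept, and each of the 8 genes had 1. A gene was tested if 3 or more arrays exceeded 6.70, the median of the whole table. Groups came from the titles, and 1 array with conflicting labels was left out. The pairing of agents with routes is known of the study and is not in the labels.

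A limma model (version 3.58.1, R 4.3.3) with one mean for each group and moderated variances gave the p-values, and the Benjamini-Hochberg adjustment ran over all tested genes of a comparison. Equal replicate numbers gave no pairing: deviations of such arrays correlated between -0.492 and 0.236 over 25 pairs. The procedure was tested on simulated data with normal noise and one spread per gene shared by all groups. The spread of the sheath genes differed between groups, with a Krt25 SD of 0.23 in week 6 PBS pump skin and 4.22 in week 6 jak12i skin. That test therefore does not cover them. The genes, lists, comparisons and the rule for naming genes were chosen with earlier results of these data known. The rule names the 8 genes everywhere, at most 3 called genes of smallest p per other list and comparison, and the 10 most and 2 least alike genes. Promoters are from RefSeq GRCm38.p6 and all 8 matched by symbol. Precision is limited by the number of arrays.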

Additional observations from a re-analysis of the deposited data

Results flagged for a closer look

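Of 40 groups of at least 4 arrays, counted once per gene, 17 held an array set apart from its group by Dixon's criterion at 95%. Chance flags about 1 in 20 independent groups. The keratins and Tchh correlated between 0.81 and 0.99, so the 40 are not independent and the count is not measured against chance. All groups of that size were from weeks 5 and 6, and all 17 marked values were high ones. Sham replicate 4 of week 5 stood apart in 7 genes, with Krt25 at 13.42, Krt27 at 12.90, Krt28 at 11.17, Krt71 at 11.65, Krt72 at 8.87, Krt73 at 10.60 and Tchh at 12.55. PBS gavage replicate 5 of week 6 stood apart in 6, with Krt25 at 11.09, Krt27 at 10.02, Krt28 at 8.57, Krt71 at 8.15, Krt73 at 7.60 and Tchh at 10.44. Replicate 2 of week 6 jak3i stood apart in Krt25 at 8.49, Krt27 at 7.98 and Tchh at 7.91, and PBS ip replicate 2 of week 5 in Krt25 at 8.07. The criterion did not mark week 6 jak12i replicates 2 and 3, which were high together.

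The effect of jak12i against PBS gavage differed between week 13 and week 6 by a limma interaction term. The difference of effects, week 13 minus week 6, was -6.91 ± 2.41 (adjusted p = 0.0447) for Krt25, -6.56 ± 1.91 (adjusted p = 0.0165) for Krt27, -5.52 ± 1.49 (adjusted p = 0.00963) for Krt28 and -5.96 ± 1.52 (adjusted p = 0.00657) for Krt71. It was -2.88 ± 0.71 (adjusted p = 0.0054) for Krt72, -6.00 ± 1.82 (adjusted p = 0.0211) for Krt73, -6.36 ± 1.86 (adjusted p = 0.017) for Tchh and 0.48 ± 0.16 (adjusted p = 0.0394) for Gata3. The 2 high jak12i arrays of week 6 enter these values, and without them and sham replicate 4 of week 5, 4 of the 8 genes were called. The share of tested genes called in that refit is not given.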

How the results depend on the processing

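Of 2840 values of single genes under alternatives, 2710 kept their side of the threshold and the direction of any call, 77 lost a call, 52 gained one and 1 reversed: Gata3 in week 6 jak3i turned to -0.29 (adjusted p = 0.0484) with all PBS arrays of week 6 as control, which also made its comparison's count 1. Of 355 counts of called genes, 333 stayed within 1.5 times. With array weights the counts were 4 for jak12i at week 6, 6 for il15rb and 8 for jak12i at week 13, 1 for il15rb minus jak3i at week 13 and 5 for il15rb between weeks 13 and 5. Shares of all tested genes called under these alternatives are not given, so counts that rose are not set against them. With all PBS arrays il15rb at week 13 had 4. Without sham replicate 4 of week 5 and jak12i replicates 2 and 3 of week 6, il15rb at week 13 had 1 and jak12i between weeks 13 and 6 had 4. Leaving out each replicate in turn gave 0 to 5 for il15rb at week 13, 0 to 7 for jak12i at week 13, 2 to 8 for all agents at week 13 and 3 to 8 for jak12i between weeks 13 and 6. With the replicate block, Krt73 under jak12i at week 13 (adjusted p = 0.0525), and Krt25 (0.0564) and Gata3 (0.0555) for jak12i between weeks 13 and 6, lost their calls, and no other comparison's count moved by over 1.5 times. Other probe sets per gene were not run, since each gene has 1. Leaving out arrays of low skeletal muscle signal was chosen after seeing the data and moved no count by over 1.5 times. Unless shown by construction, the cause of a change was not tested. Group sizes of 3 to 5 arrays and pooled SDs of up to 2.43 log2 units (Krt25) limit what could be called, and one shared spread was assumed for groups that differed in spread.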

Other observations

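The week 5 array in no group had Krt27 at 6.17, Krt28 at 6.69, Krt72 at 7.13, Krt73 at 5.29 and Gata3 at 11.50. Krt27, Krt28 and Krt73 lay below the medians of the grouped week 5 arrays, 6.79, 6.70 and 5.32. Krt28 and Krt73 were close to theirs, and Krt72 lay just above its median of 7.11. Gata3 lay below the PBS ip range of 11.51 to 11.68 and inside the sham range of 11.02 to 11.68. The T cell genes of that array averaged 6.81, below the 7.03 to 7.14 of il15rb arrays and the 7.58 to 7.70 of PBS ip arrays.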
